A study of Mus musculus with 28 samples.

Results

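The Cyp4a fatty acid omega-hydroxylases examined here were 6 genes of 21935 in the deposited count table. The members were *Cyp4a10*, *Cyp4a14*, *Cyp4a12a*, *Cyp4a12b*, *Cyp4a31* and *Cyp4a32*, taken as a gene family by symbol with earlier results of these data known, and all 6 passed the filter on low counts that left 12580 genes for testing. Liver poly(A) RNA was sequenced from 28 male leptin-deficient B6.V-Lepob/JRj mice, which were 5 weeks old when obtained. They ate the Amylin liver NASH (AMLN) diet, rich in trans fat, fructose and cholesterol, for 14 weeks and then throughout treatment. For 2 weeks, 10 mice then received vehicle (carboxymethylcellulose) by mouth each day, 9 received obeticholic acid (OCA) at 30 mg/kg and 9 received INT-787 at 30 mg/kg. All 3 groups therefore shared the leptin mutation, sex and diet, so no lean or chow-fed level was measured. Both drugs are bile acid derivatives that activate the farnesoid X receptor (FXR), and INT-787 differs from OCA by an added hydroxyl group on the steroid ring system.

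Cyp4a enzymes are liver cytochromes P450 that place a hydroxyl group on the last (omega) carbon of a fatty acid. The product is oxidised further to a dicarboxylic acid, which is shortened in peroxisomes, and this route is known to take up fatty acids when mitochondrial oxidation is loaded. In mouse liver *Cyp4a10* and *Cyp4a14* are textbook targets of the fatty acid sensor PPARα, whereas the *Cyp4a12* copies are known for their higher level in males and for making hydroxylated arachidonic acid.

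The 6 genes lie in 1 cluster on chromosome 4 of GRCm38. *Cyp4a12a* (ENSMUSG00000066071) spans 115299046 to 115332815 and *Cyp4a12b* (ENSMUSG00000078597) spans 115411624 to 115439034, both on the plus strand. *Cyp4a14* (ENSMUSG00000028715), from 115486200 to 115496142, is the only member on the minus strand. *Cyp4a10* (ENSMUSG00000066072) follows at 115518264 to 115533649, *Cyp4a31* (ENSMUSG00000028712) at 115563649 to 115579015 and *Cyp4a32* (ENSMUSG00000063929) at 115600969 to 115621602, all on the plus strand. No exon of a member overlaps an exon of a gene on the opposite strand.

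Whether reads can be told apart between copies depends on how their sequences differ. The coding sequences of *Cyp4a12a* and *Cyp4a12b* differ at 23 of 1527 bases (98.5% identity). *Cyp4a10* differs from *Cyp4a31* at 52 of 1530 bases (96.6% identity) and from *Cyp4a32* at 43 (97.2% identity), whereas *Cyp4a14* is no more than 76.1% identical to any other member. Of all 75-base stretches of its transcript, *Cyp4a12a* shares 40.8% exactly with *Cyp4a12b*, *Cyp4a32* shares 30.4% and *Cyp4a10* 19.1% with the other 2 genes of their trio, and *Cyp4a14* shares none with any annotated gene. The coding stretches of 60 bases in which the copies are most unlike are shown because a read must cross such bases to be assigned to 1 copy. They come from GENCODE vM21 transcripts of GRCm38, plus strand, and capitals mark every base that is not the same in all copies shown. The pair lies in exon 6 at chr4:115326628-115326687 (*Cyp4a12a*) and chr4:115432881-115432940 (*Cyp4a12b*) and differs at 4 bases.
Cyp4a12a: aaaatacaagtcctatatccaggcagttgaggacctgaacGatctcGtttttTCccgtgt
Cyp4a12b: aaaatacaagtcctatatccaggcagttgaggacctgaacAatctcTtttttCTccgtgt

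The trio lies in exon 2 at chr4:115519654-115519713 (*Cyp4a10*), chr4:115565034-115565093 (*Cyp4a31*) and chr4:115602284-115602343 (*Cyp4a32*). Its copies differ at 9 bases, of which *Cyp4a10* and *Cyp4a31* differ from each other at 3.
Cyp4a10: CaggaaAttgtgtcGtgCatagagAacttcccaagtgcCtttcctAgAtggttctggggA
Cyp4a31: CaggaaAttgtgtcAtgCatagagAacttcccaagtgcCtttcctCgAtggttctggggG
Cyp4a32: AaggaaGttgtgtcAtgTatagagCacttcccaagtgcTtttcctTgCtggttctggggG

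Because how reads shared by copies were counted is not given in the sources used here, each single copy below is uncertain, and sums of *Cyp4a10* with *Cyp4a31* and *Cyp4a32* and of *Cyp4a12a* with *Cyp4a12b* are given beside them.

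Vehicle replicate 6 was the shallowest library, with 1009593 counts, and the deepest, an OCA library, held 22421506. In vehicle replicate 5, the counts on genes overlapped by a more abundant gene of the opposite strand came to 0.113 of those expected without strand information, against 0.00479 to 0.00987 in the other 27 mice. Both mice were kept, and the differences of members, sums and ratios from vehicle were also computed without them. All 8 hepatocyte markers were found in each group, with a mean of at least 358 CPM (counts per 1000000 counts of the library), but their summed level was unequal, at medians of 98851 CPM in vehicle, 140665 in OCA and 137802 in INT-787. In bulk liver, fewer cells of a type and less RNA per cell cannot be told apart.

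In vehicle mice *Cyp4a14* and *Cyp4a10* stood far above the other members. Per kilobase of exon, *Cyp4a14* averaged 251 ± 74.5 CPM (SD, n = 10) and *Cyp4a10* 127 ± 36.8, followed by *Cyp4a12a* at 32.7 ± 20.9. The last 3 in the order were *Cyp4a12b* at 5.91 ± 4.71, *Cyp4a32* at 5.44 ± 0.800 and *Cyp4a31* at 5.20 ± 1.21 CPM per kilobase, and these did not differ beyond their spread. With OCA (n = 9) the level of *Cyp4a14* was 100.4 ± 86.1 CPM per kilobase and that of *Cyp4a10* 86.7 ± 72.0, so the leading pair was within its spread. With INT-787 (n = 9) the pair was at 201 ± 224 for *Cyp4a14* and 187 ± 187 for *Cyp4a10*, again within its spread. *Cyp4a12b* at 24.8 ± 21.9 stood above *Cyp4a12a* at 14.7 ± 12.6. Their spreads over mice overlapped, but *Cyp4a12b* had the higher count in each of the 9 INT-787 mice.

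**Figure D1:**
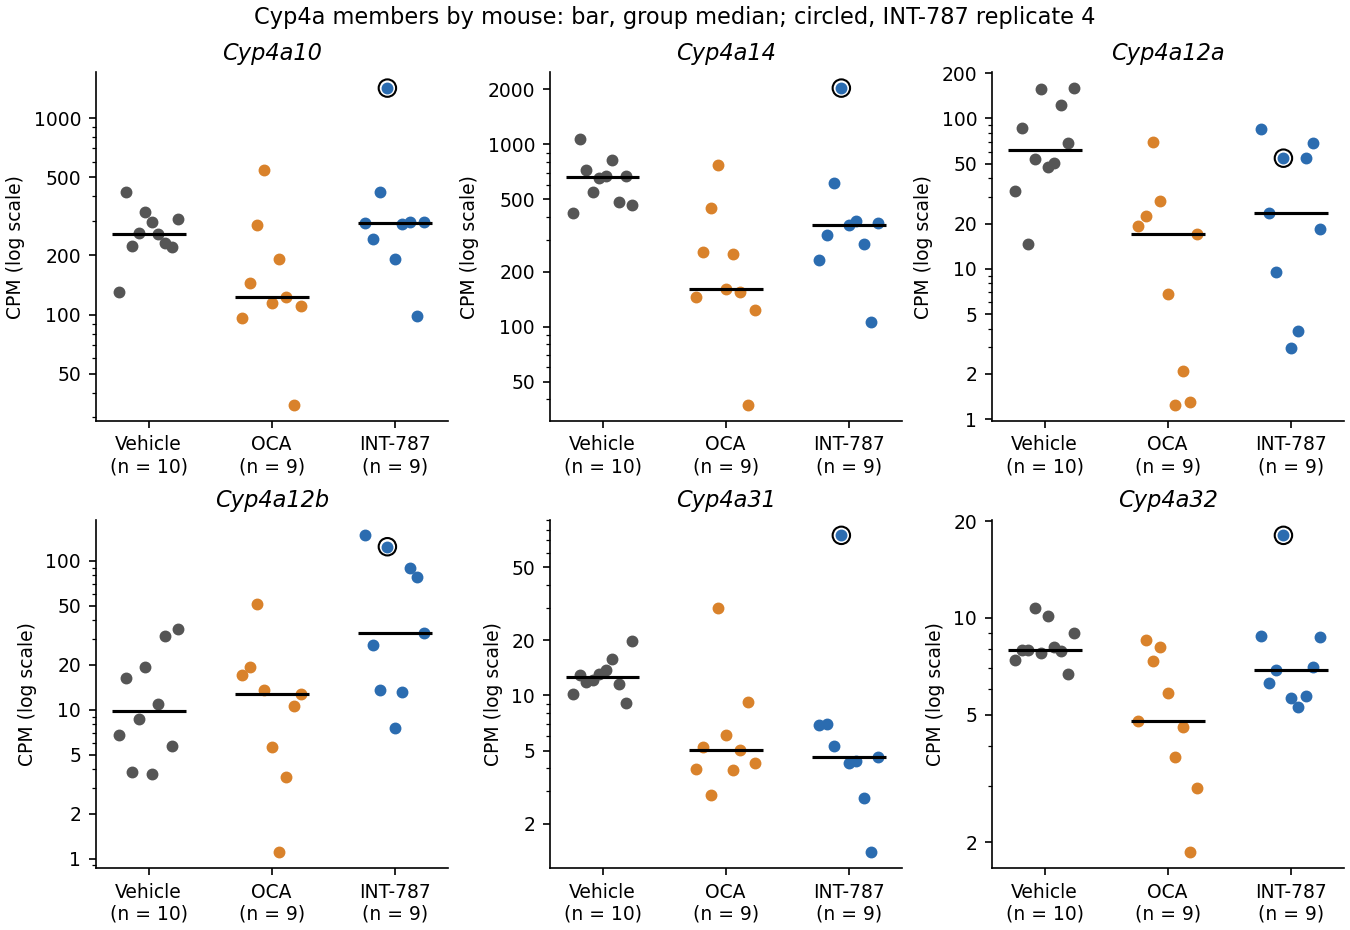
Each point is 1 mouse, with CPM on a log axis for each of the 6 genes, groups side by side and a bar at the group median. The circled mouse, INT-787 replicate 4, is the highest of its group for *Cyp4a10*, *Cyp4a14*, *Cyp4a31* and *Cyp4a32*, and the vehicle group is the tightest of the 3 for these 4 genes.

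In each comparison 1 of the 6 members passed the test (edgeR quasi-likelihood test, Benjamini-Hochberg adjusted p of at most 0.05). With INT-787 against vehicle only *Cyp4a12b* was called, and it was higher, while 19.6% of all tested genes were called (10.2% higher, 9.48% lower). With OCA against vehicle only *Cyp4a12a* was called, and it was lower, while 6.6% of all tested genes were called (4.15% higher, 2.45% lower). Between the drugs only *Cyp4a12b* was called, and it was higher with INT-787, while 5.38% of all tested genes were called (2.19% higher, 3.19% lower). With upper-quartile normalization in place of TMM, the share of called genes that were higher went from 51.7% to 37.5% (INT-787), 62.9% to 52.3% (OCA) and 40.8% to 32.2% (between the drugs). With copies summed, no sum passed in any comparison, whereas 19.6% (INT-787), 6.59% (OCA) and 5.37% (between the drugs) of tested features were called. A single member in 6 is a count too small to be read against these shares.

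*Cyp4a14*, the PPARα target with the highest level, was measured at 421 to 1069 CPM in vehicle mice, with a median of 659. In OCA mice it ranged from 37.2 in replicate 8 through a median of 161 to 775 CPM in replicate 4. In INT-787 mice it ranged from 106 in replicate 8 through a median of 363 to 2033 CPM in replicate 4. All 3 groups overlapped, yet 8 of 9 mice on either drug lay below the vehicle median. The difference of OCA from vehicle was −1.32 on the log2 scale (95% interval −2.19 to −0.46, adjusted p = 0.0552 by edgeR), which missed the threshold. It passed with an adjusted p of 0.0470 without OCA replicate 3, 0.00738 without OCA replicate 4, and without INT-787 replicate 4 or 8 at 0.0147 or 0.0384, and also in DESeq2 (0.0389), in limma-voom (0.00655), with upper-quartile normalization (0.0461), with at least 10 counts in every mouse (0.0423), with only the 2 groups compared (0.0237) and with sets of neighbouring sample numbers as a term (0.00243). INT-787 against vehicle was −0.32 (−1.17 to 0.52, adjusted p = 0.646) and moved to −0.97 (adjusted p = 0.0526) without its replicate 4. INT-787 against OCA was 1.0 (0.13 to 1.87, adjusted p = 0.183), and it was 1.41 with an adjusted p of 0.0401 without OCA replicate 4 and 0.36 without INT-787 replicate 4.

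*Cyp4a10*, the other main PPARα target, was measured at 130 to 420 CPM in vehicle mice, with a median of 259. In OCA mice it ranged from 34.7 to 542 CPM with a median of 123, and in INT-787 mice from 98.3 to 1419 CPM with a median of 291. The groups overlapped, with 7 of 9 OCA mice below the vehicle median and 6 of 9 INT-787 mice above it. Log2 differences were −0.55 for OCA (−1.33 to 0.23, adjusted p = 0.491 by edgeR) and 0.56 for INT-787 (−0.22 to 1.33, adjusted p = 0.330), the former at −0.96 without OCA replicate 4 (adjusted p = 0.128) and the latter at −0.0085 without INT-787 replicate 4. Between the drugs the difference was 1.11 (0.31 to 1.91, adjusted p = 0.0967), and 8 of 9 INT-787 mice were above the OCA median. Without OCA replicate 4 it was 1.51 with an adjusted p of 0.0134, and without INT-787 replicate 4 it was 0.54 and not called.

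*Cyp4a31* was measured at 9.10 to 19.9 CPM in vehicle mice, with a median of 12.6. In OCA mice it ranged from 2.86 to 30.0 CPM with a median of 5.02. In INT-787 mice it ranged from 1.40 to 74.5 CPM with a median of 4.61, and replicate 4 stood alone, since the next highest INT-787 mouse was at 7.03 CPM. Thus 8 of 9 INT-787 mice were below every vehicle mouse and 1 was above all of them. The fitted log2 difference of INT-787 from vehicle was −0.08 (−1.14 to 0.98, adjusted p = 0.944 by edgeR) with that mouse and −1.5 (adjusted p = 0.00244) without it. DESeq2, which by default replaces counts far from their group, gave −1.40 (adjusted p = 2.28e-08), and limma-voom gave −1.18 (adjusted p = 0.0321). The part of that replacement in the DESeq2 value was not tested. OCA against vehicle was −0.76 (−1.85 to 0.32, adjusted p = 0.493), with 8 of 9 OCA mice below the vehicle median. It was −1.36 without OCA replicate 4 (adjusted p = 0.128) and −1.29 in DESeq2 (adjusted p = 8.57e-07). INT-787 against OCA was 0.68 (−0.41 to 1.78, adjusted p = 0.551), and −0.74 without INT-787 replicate 4.

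*Cyp4a32* was the steadiest member, at 6.70 to 10.7 CPM in vehicle mice with a median of 7.95. It ranged from 1.86 to 8.51 CPM with a median of 4.77 in OCA mice, and from 5.27 to 18.1 CPM with a median of 6.86 in INT-787 mice. The groups overlapped, and all 9 INT-787 mice were above the OCA median. The log2 difference of OCA from vehicle was −0.65 (−1.12 to −0.18, adjusted p = 0.0895 by edgeR), and it passed without OCA replicate 2 (adjusted p = 0.0407) or INT-787 replicate 4 (0.0366), in DESeq2 (0.0470) and in limma-voom (0.0237). INT-787 differed from vehicle by −0.04 (−0.49 to 0.42, adjusted p = 0.938) and from OCA by 0.61 (0.14 to 1.08, adjusted p = 0.120).

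Summed with *Cyp4a31* and *Cyp4a32*, *Cyp4a10* was at 148 to 441 CPM in vehicle mice (median 282), 45.7 to 580 in OCA mice (median 133) and 107 to 1512 in INT-787 mice (median 306). The sum followed *Cyp4a10*, which held most of its counts, with log2 differences of −0.56 for OCA (−1.33 to 0.20, adjusted p = 0.464 by edgeR) and 0.52 for INT-787 (−0.24 to 1.28, adjusted p = 0.357). Between the drugs the sum differed by 1.08 (0.30 to 1.87, adjusted p = 0.0973), by 1.49 (adjusted p = 0.0127) without OCA replicate 4 and by 0.50 (adjusted p = 0.418) without INT-787 replicate 4. The OCA difference was −0.97 (adjusted p = 0.108) without OCA replicate 4.

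*Cyp4a12a*, known as a male-predominant enzyme, was measured at 14.7 to 159 CPM in vehicle mice, with a median of 61.3. In OCA mice it ranged from 1.24 to 69.9 CPM with a median of 17.1, and in INT-787 mice from 2.96 to 85.4 CPM with a median of 23.5. The groups overlapped, with 8 of 9 OCA mice and 7 of 9 INT-787 mice below the vehicle median. It fell with OCA by 2.10 on the log2 scale (SE 0.62, adjusted p = 0.0349 by edgeR). This call was lost in 8 of 28 fits that left out 1 mouse, namely without OCA replicates 1, 5, 6, 7 or 9 or vehicle replicates 5, 8 or 10, at adjusted p values of 0.0536 to 0.0652 and log2 differences of −2.11 to −1.94. INT-787 differed from vehicle by −1.17 (−2.38 to 0.05, adjusted p = 0.175) and from OCA by 0.93 (−0.32 to 2.19, adjusted p = 0.451).

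*Cyp4a12b*, its near-identical copy, was measured at 3.68 to 34.9 CPM in vehicle mice, with a median of 9.79. In OCA mice it ranged from 1.10 to 51.2 CPM with a median of 12.7, and in INT-787 mice from 7.49 to 148 CPM with a median of 32.8. The groups overlapped, but 4 INT-787 mice, at 78.3 to 148 CPM, exceeded every mouse of the other groups. *Cyp4a12b* rose with INT-787 by 2.00 on the log2 scale (SE 0.55, 95% interval 0.89 to 3.12, adjusted p = 0.00903 by edgeR), and this call held in all 38 alternatives that could test it. OCA differed from vehicle by 0.02 (−1.10 to 1.14, adjusted p = 0.997). INT-787 was higher than OCA by 1.99 (SE 0.56, adjusted p = 0.0305), and that call was lost in 6 fits, without INT-787 replicates 1, 4 or 7 or OCA replicates 5, 6 or 8, at adjusted p values of 0.0524 to 0.0747.

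Summed, the pair was at 18.5 to 194 CPM in vehicle mice (median 68.4), 2.34 to 121 in OCA mice (median 29.8) and 10.4 to 233 in INT-787 mice (median 51.1). For INT-787 the sum differed from vehicle by 0.01 on the log2 scale (−1.11 to 1.13, adjusted p = 0.993 by edgeR), while the copies' own differences were −1.17 and 2.00. OCA differed from vehicle by −1.49 (−2.64 to −0.33, adjusted p = 0.124) and INT-787 from OCA by 1.5 (0.32 to 2.67, adjusted p = 0.129). Both passed without OCA replicate 3, at −2.06 (adjusted p = 0.0234) and 2.07 (adjusted p = 0.0239), and the first also in limma-voom (−2.01, adjusted p = 0.0457).

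**Figure D2:**
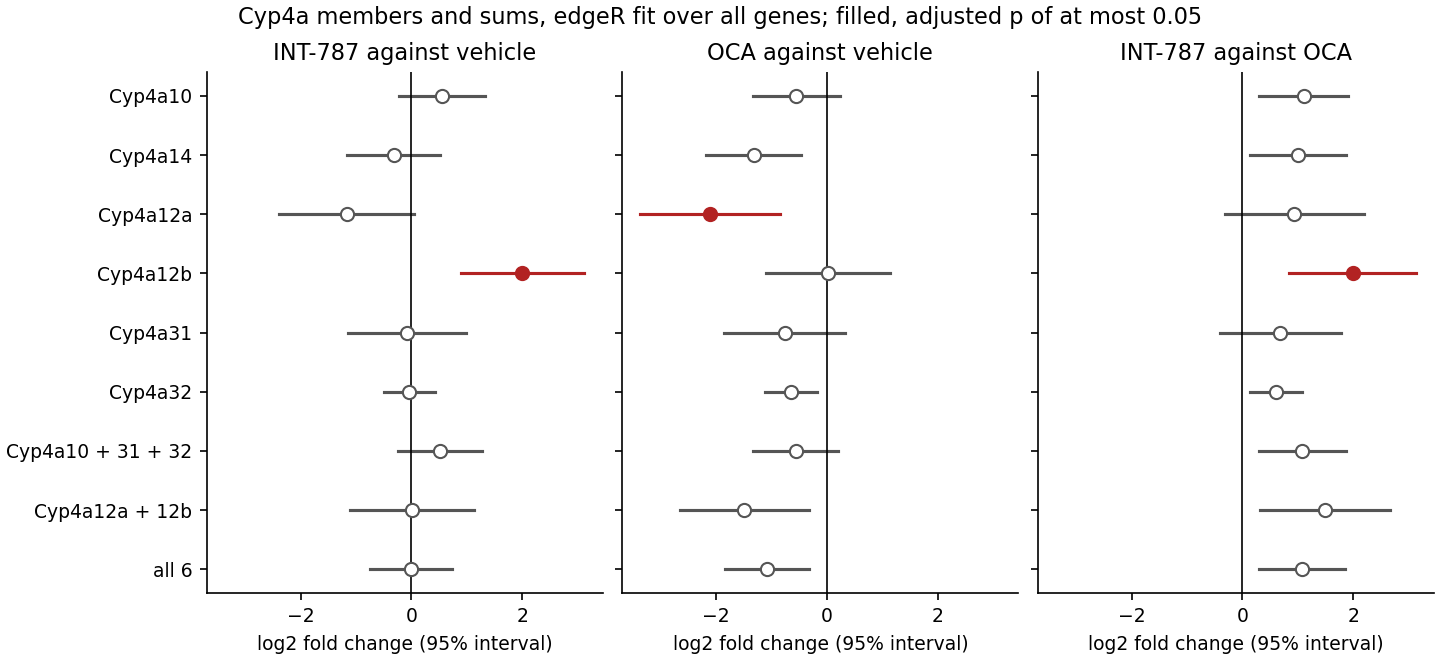
Points are log2 fold changes for the 6 genes and the 3 sums with 95% intervals, in 1 panel per comparison, and filled points passed an adjusted p of 0.05. *Cyp4a12b* is the filled point in both comparisons of INT-787 and *Cyp4a12a* in that of OCA against vehicle, and no sum is filled.

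The balance between copies was then measured within each mouse, where library size cancels. These ratios were chosen after the values had been seen. Vehicle mice had 3.83 to 12 counts of *Cyp4a12a* for each count of *Cyp4a12b*, with a median of 5.08. OCA mice had 0.125 to 2.08, with a median of 1.16, and INT-787 mice had 0.297 to 0.875, with a median of 0.577. No mouse on either drug reached the lowest vehicle mouse, and *Cyp4a12b* had the higher count in all 9 INT-787 mice. The mean ratio was 10.7-fold lower with INT-787 than with vehicle (log2 difference −3.42, 95% interval −3.97 to −2.86) and 6.43-fold lower with OCA (−2.68, −3.57 to −1.88). Both had p = 2.17e-05 in a two-sided exact permutation test, the smallest that test can give here, and an adjusted p of 9.74e-05 over 9 such ratio tests. Without any 1 mouse the differences stayed between −3.50 and −3.30 for INT-787 and between −2.83 and −2.32 for OCA. The least counted value was *Cyp4a12b* in vehicle replicate 6, with 4 counts.

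INT-787 and OCA differed in this ratio by −0.73 (−1.52 to 0.17, exact permutation p = 0.106), and the ranges overlapped. OCA replicate 8, the mouse with the ratio of 0.125, decided that result, since without it the difference was −1.09 with an exact permutation p of 0.000823.

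**Figure D3:**
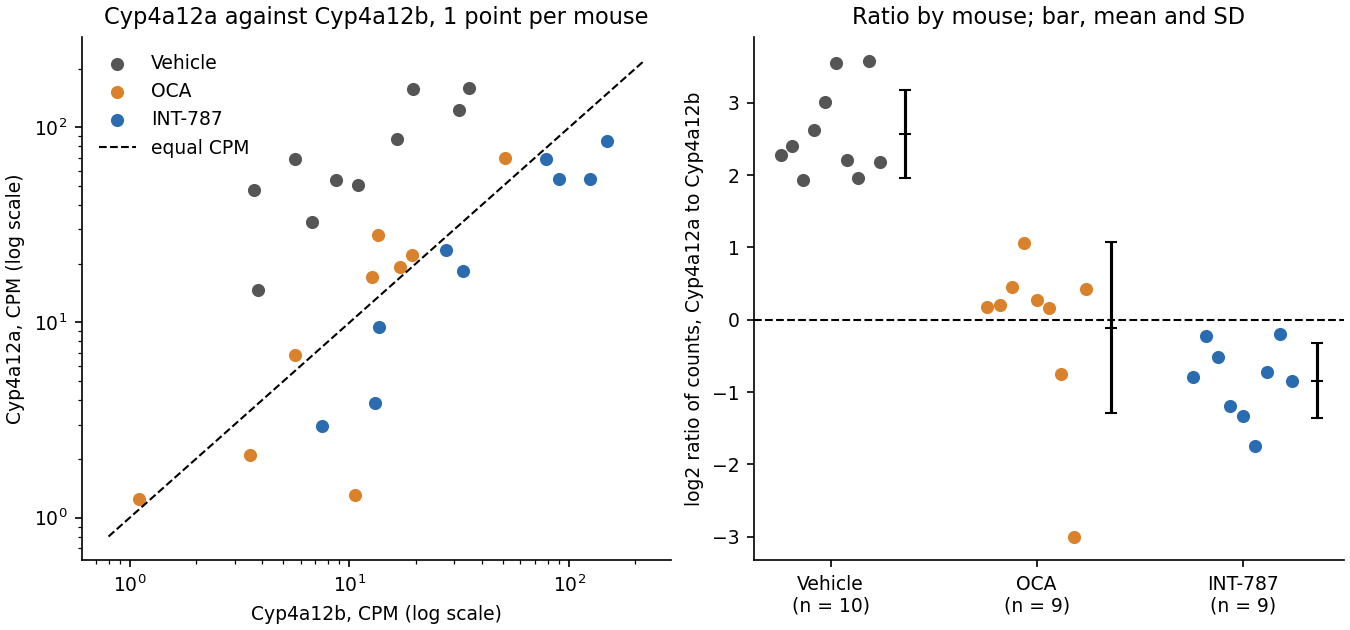
The left panel plots *Cyp4a12a* against *Cyp4a12b* in CPM on log axes, 1 point per mouse, with a dashed line of equal values. The right panel shows the log2 ratio of their counts by group with the mean and SD, where vehicle mice lie at or above 1.94, all INT-787 mice lie below 0 and vehicle overlaps neither drug.

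Within each group the pair moved together from mouse to mouse. Over 12 relations tested, Pearson's r between log2 CPM of *Cyp4a12a* and *Cyp4a12b* was 0.843 in vehicle, 0.843 in OCA and 0.964 in INT-787, with Spearman's rho of 0.855, 0.900 and 0.933. Adjusted permutation p values for r were 0.00561, 0.00671 and 0.000496, and for rho they were 0.00801, 0.00801 and 0.00450. Leaving out the 2 mice farthest from the median kept r at 0.777, 0.961 and 0.961. The counts of the copies thus ranked the mice alike within a group while their proportion differed between groups. How reads shared by the copies were counted is not known, and the part of such reads in these correlations was not tested.

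*Cyp4a14* and *Cyp4a10* are less alike in sequence, and their proportion also differed. Vehicle mice had 1.53 to 3.24 counts of *Cyp4a14* per count of *Cyp4a10* (median 2.40), OCA mice 1.07 to 1.76 (median 1.40) and INT-787 mice 0.796 to 1.89 (median 1.32). The ranges overlapped at their ends. The ratio was 1.97-fold lower with INT-787 (log2 difference −0.98, −1.34 to −0.62, exact permutation p = 4.33e-05, adjusted p = 0.000130) and 1.79-fold lower with OCA (−0.84, −1.14 to −0.54, exact permutation p = 6.50e-05, adjusted p = 0.000146). Between the drugs it differed by −0.14 (−0.44 to 0.17, exact permutation p = 0.361). These 2 comparisons against vehicle share their control mice.

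In OCA mice *Cyp4a10* and *Cyp4a14* were tightly related, with r = 0.988 and rho = 0.950 (adjusted permutation p of 0.000496 and 0.00423), and r was 0.948 without the 2 farthest mice. In INT-787 mice r was 0.949 (adjusted permutation p = 0.00561) and rho 0.683 (adjusted permutation p = 0.101), but r fell to 0.483 without the 2 farthest mice, so the relation rests on them. In vehicle mice r was 0.626 (adjusted permutation p = 0.0872) and rho 0.248 (adjusted permutation p = 0.592), and r was −0.152 without the 2 farthest mice. *Cyp4a14* and *Cyp4a12a*, a PPARα target and a male-predominant gene, had r of −0.132 in vehicle, 0.613 in OCA and −0.153 in INT-787, with rho of −0.212, 0.600 and −0.517, and none passed (lowest adjusted permutation p 0.114 for r and 0.166 for rho).

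*Cyp4a31* kept 0.0309 to 0.0786 counts per count of *Cyp4a10* in vehicle mice (median 0.0492) and 0.00941 to 0.0525 in INT-787 mice (median 0.0156). The highest of the INT-787 mice was again replicate 4, and the ranges overlapped. This ratio was 2.60-fold lower with INT-787 (log2 difference −1.38, −1.93 to −0.81, exact permutation p = 0.000260, adjusted p = 0.000468). In OCA mice it ranged from 0.0101 to 0.265 with a median of 0.0410, and it differed from vehicle by −0.25 (−1.07 to 0.61, exact permutation p = 0.571), or by −0.59 without OCA replicate 8 (exact permutation p = 0.0474). INT-787 differed from OCA by −1.13 on the log2 scale (−2.16 to −0.13, exact permutation p = 0.0274, adjusted p = 0.0412), which was lost without OCA replicate 8 (−0.79, exact permutation p = 0.0553) or INT-787 replicate 7 (−1.0, exact permutation p = 0.0548). *Cyp4a31* and *Cyp4a10* had r of 0.525 in vehicle, 0.295 in OCA and 0.912 in INT-787, with rho of 0.721, −0.117 and 0.550. The INT-787 value (adjusted permutation p = 0.0133) fell to 0.00385 without the 2 farthest mice, so it rests on them, and no rho passed (lowest adjusted permutation p 0.0546).

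As shares of the 6 genes' summed counts, *Cyp4a14* was 63.0% ± 8.44 in vehicle (SD, n = 10), 51.2% ± 5.50 in OCA and 47.7% ± 12.1 in INT-787 (n = 9 each). *Cyp4a10* was 25.7% ± 3.37, 37.5% ± 3.91 and 37.5% ± 4.46 in the same order. The vehicle maximum of 30.7% for *Cyp4a10* was below the OCA minimum of 31.9%, while 1 INT-787 mouse was at 27.4%. *Cyp4a12b* was 1.40% ± 1.18, 4.03% ± 3.45 and 7.75% ± 7.96, reaching 21.8% in INT-787 replicate 8. The total of all 6 genes was 609 to 1614 CPM in vehicle (median 992), 94.8 to 1397 in OCA (median 300.2) and 359 to 3723 in INT-787 (median 731). OCA differed from vehicle in that total by −1.08 on the log2 scale (−1.84 to −0.32, adjusted p = 0.0824 by edgeR) and INT-787 from OCA by 1.07 (0.30 to 1.85, adjusted p = 0.0958). INT-787 differed from vehicle by −0.0049 (−0.75 to 0.74, adjusted p = 0.995). The first passed without OCA replicate 4 (−1.46, adjusted p = 0.00929) or INT-787 replicate 4 (−1.08, adjusted p = 0.0234), and the second without OCA replicate 4 (1.45, adjusted p = 0.0144), while without INT-787 replicate 4 the second was 0.50 (adjusted p = 0.410). The first also passed in limma-voom (−1.41, adjusted p = 0.00864), with only the 2 groups compared (−1.09, adjusted p = 0.0482) and with sets of neighbouring sample numbers as a term (−1.42, adjusted p = 0.00306), as the second did with those sets (1.03, adjusted p = 0.0336).

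**Figure D4:**
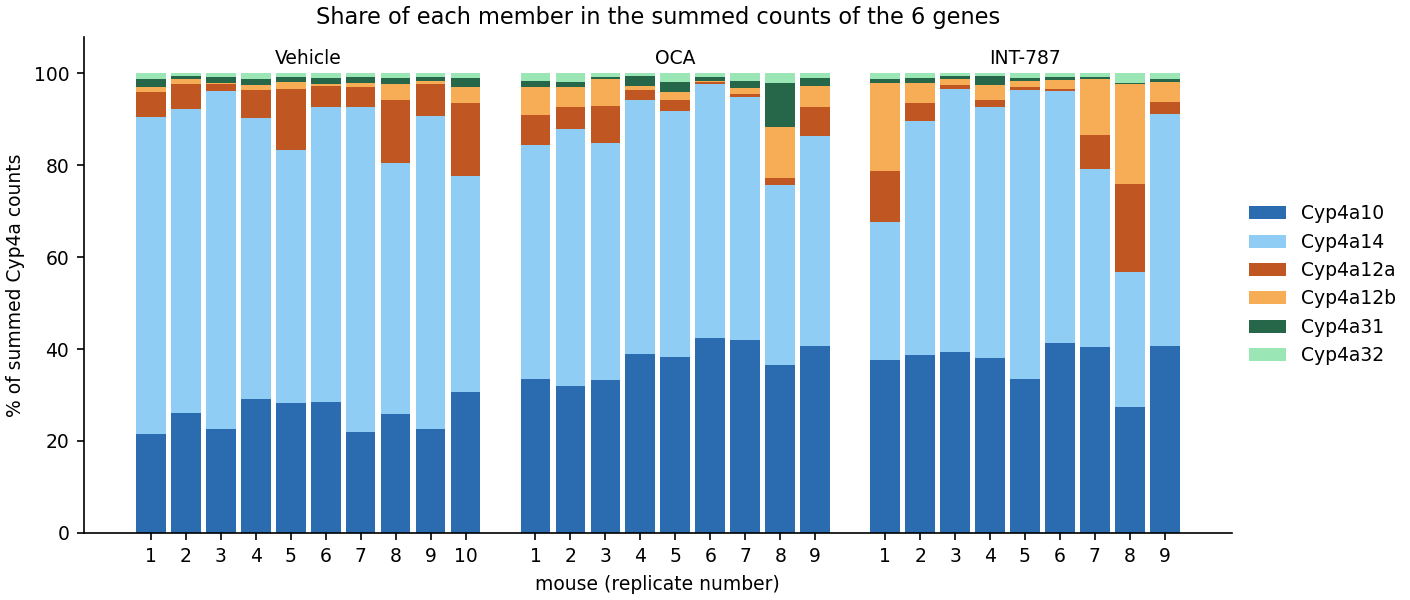
Each bar is 1 mouse and shows the percentage of the summed counts of the 6 genes that each member holds. *Cyp4a14* is the largest band in all vehicle mice, the *Cyp4a10* band is wider in mice on either drug (mean 37.5% in both groups, 25.7% in vehicle), and *Cyp4a12b* is a visible band mainly in mice on either drug.

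Mouse-to-mouse spread was itself unequal. The highest vehicle mouse had 2.54 times the *Cyp4a14* CPM of the lowest, against 20.8 times in OCA and 19.2 times in INT-787. For *Cyp4a10* the span was 3.22 times in vehicle, 15.6 in OCA and 14.4 in INT-787. Single mice carried much of these spans. Without INT-787 replicate 4 they were 5.80 times for *Cyp4a14* and 4.29 for *Cyp4a10*, and 8.78 and 7.38 without INT-787 replicate 8. Without OCA replicate 8 they were 6.24 and 5.64 times, and without OCA replicate 4 they were 12 and 8.27. The *Cyp4a10* span in vehicle was 1.89 times without replicate 1. INT-787 replicate 4 was also the highest of its group in 25 of the 44 other PPARα targets examined (56.8%), while it was the highest in 12% of all tested genes. OCA replicate 4, the highest of its group for *Cyp4a10* and *Cyp4a14*, was the highest in 6 of the 44 (13.6%, beside 10.4% of all tested genes), and OCA replicates 3 and 5 led the list instead, in 18 (40.9%) and 12 (27.3%). Vehicle replicate 4 was the highest in 24 of the 44 (54.5%, beside 9.83%) but not for *Cyp4a10* or *Cyp4a14*, for which vehicle replicate 2 was. OCA replicate 8, the lowest of its group for *Cyp4a14*, *Cyp4a10* and *Cyp4a32*, was the lowest in 20 of those 44 targets (45.5%), beside 18.9% of all tested genes. INT-787 replicate 8, the lowest of its group for *Cyp4a14* and *Cyp4a10*, was the lowest in 12 (27.3%, beside 19.8%). INT-787 replicate 1, not the lowest for either gene, was the lowest in 13 (29.5%, beside 12.2%). What set these mice apart was not tested.

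The rest of the pathway was read from gene lists. Of the 44 other PPARα targets, 1 rose and 12 fell with INT-787, with a median log2 difference of −0.20 where that of all tested genes was −0.0010. With OCA 1 rose and 17 fell, with a median of −0.39 (all genes 0.02), and 3 were higher and none lower in INT-787 than in OCA mice, with a median of 0.19 (all genes −0.0065). *Acaa1b*, a peroxisomal thiolase of beta-oxidation, averaged 1793 CPM in vehicle, 825 in OCA and 1162 in INT-787, and it fell with OCA by 1.12 on the log2 scale (adjusted p = 1.06e-06). *Fitm1*, a fat storage protein of the endoplasmic reticulum, fell by 1.03 with OCA (adjusted p = 0.000999) and by 0.75 with INT-787 (adjusted p = 0.00847). *Pdk4*, a brake on pyruvate use, fell by 0.96 with OCA (adjusted p = 0.00267). The lipid droplet gene *Cidec* and the mitochondrial carrier *Ucp2* fell with INT-787 by 0.81 (adjusted p = 0.00213) and 0.80 (adjusted p = 0.000269). The 3 targets higher with INT-787 than OCA were *Acaa1b* (0.49, adjusted p = 0.0320), *Decr2* (0.48, adjusted p = 0.0236), which reduces unsaturated intermediates in peroxisomes, and *Aldh3a2* (0.47, adjusted p = 0.0146).

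*Ppara* itself averaged 104 CPM in vehicle, 110.0 in OCA and 124 in INT-787. Its log2 differences were 0.08 with OCA (adjusted p = 0.920), 0.25 with INT-787 (adjusted p = 0.513) and 0.17 between the drugs (adjusted p = 0.792). Of the 13 genes for PPARα and its partners, 3 rose with INT-787 and 2 with OCA, none fell, and none differed between the drugs. These were *Nr0b2*, the FXR-induced repressor SHP (1.62 with INT-787, adjusted p = 2.03e-07, and 1.17 with OCA, adjusted p = 0.000104), *Creb3l3*, a hepatic transcription factor (0.51, adjusted p = 0.000141, and 0.33, adjusted p = 0.0254), and, with INT-787, the coactivator *Ppargc1a* (0.58, adjusted p = 0.00906). Median differences of this list were 0.24 for INT-787 and 0.16 for OCA against vehicle, and 0.08 between the drugs. *Creb3l3* stands in both this list and that of PPARα targets, where it is the 1 gene that rose with INT-787.

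Of 14 other *Cyp4* genes 8 were tested, and with INT-787 2 rose and 3 fell, with none called for OCA and 3 lower in INT-787 than in OCA mice (medians −0.32, −0.12 and −0.04). *Cyp4f14*, which hydroxylates leukotriene B and fatty acids, fell with INT-787 by 1.13 (adjusted p = 5.92e-05) and differed from OCA by −0.74 (adjusted p = 0.0198). *Cyp4f18* fell by 0.93 (adjusted p = 0.00124) and differed from OCA by −0.75 (adjusted p = 0.0252), and *Cyp4f16* differed from OCA by −0.56 (adjusted p = 0.00740). *Cyp4v3* rose with INT-787 by 0.53 (adjusted p = 0.000611). None of the 5 genes that pass electrons to P450 enzymes (*Por*, *Cyb5a*, *Cyb5b*, *Cyb5r3* and *Pgrmc1*) was called in any comparison, with medians of −0.06, −0.15 and 0.17.

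Of 24 genes for the steps after omega-hydroxylation, 5 rose and 7 fell with INT-787 (median −0.14), 1 rose and 8 fell with OCA (median −0.32), and 4 were higher with INT-787 than OCA and none lower (median 0.23). *Adh4*, an alcohol dehydrogenase that can oxidise the omega-alcohol, went from 60.8 CPM in vehicle to 122 in OCA and 130 in INT-787, and it rose by 1.0 (adjusted p = 4.52e-06) and 1.09 (adjusted p = 3.25e-07). *Aldh3a2*, the fatty aldehyde dehydrogenase, averaged 979 CPM in vehicle and 529 in OCA, and it fell with OCA by 0.89 (adjusted p = 2.55e-06). *Acsl4*, which activates long-chain polyunsaturated acids, fell with INT-787 by 0.67 (adjusted p = 0.000101), as did *Acaa1b* by 0.63 (adjusted p = 0.00124). *Adh5* was higher with INT-787 than with OCA by 0.33 (adjusted p = 0.0473). *Aldh3a2* and *Acaa1b* stand in both this list and that of PPARα targets.

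**Figure D5:**
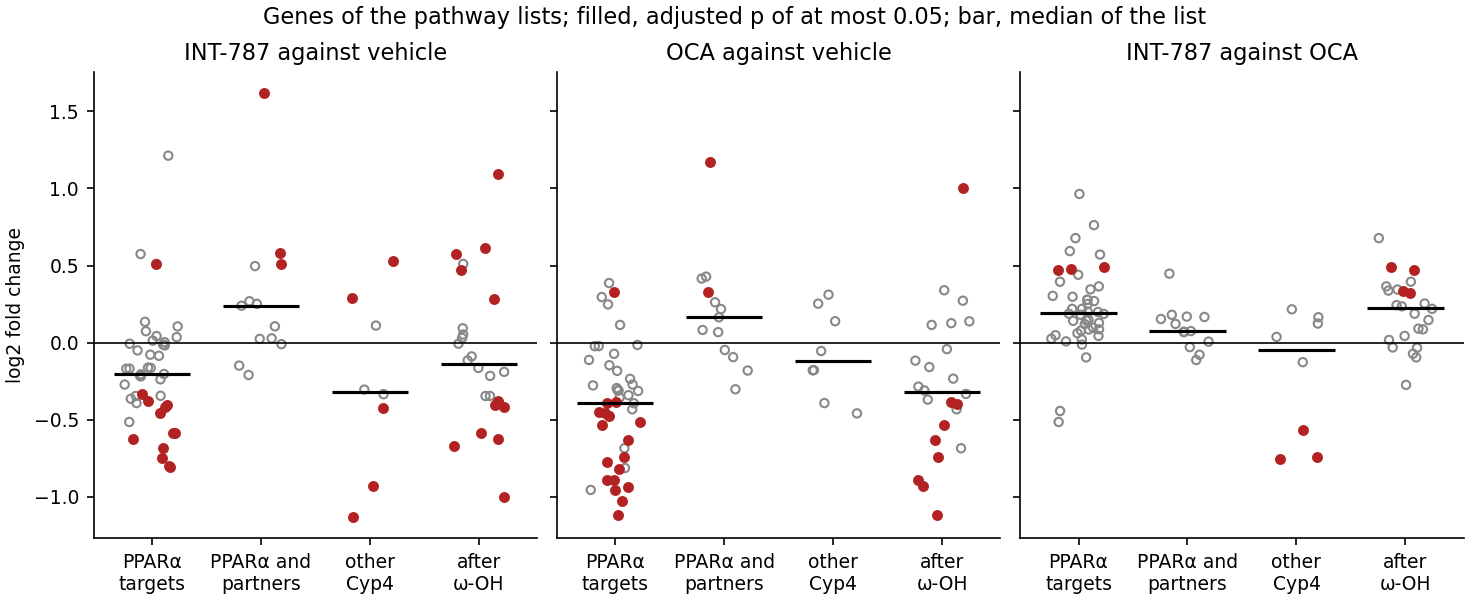
Points are log2 fold changes of single genes in 4 lists that leave out the 6 members, in 1 panel per comparison, filled where the adjusted p was at most 0.05, with a bar at the list median. The median of PPARα targets lies at −0.39 with OCA, −0.20 with INT-787 and 0.19 between the drugs.

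Since the *Cyp4a12* copies are known as male-predominant genes, sex-biased liver genes were listed too. Of 14 other male-biased genes 11 were tested, and 1 rose and 6 fell with INT-787 (median −0.57), 1 rose and 3 fell with OCA (median −0.53) and 3 were lower with INT-787 than OCA (median −0.34). *Serpina1e*, a serine protease inhibitor, averaged 51.8 CPM in vehicle, 8.09 in OCA and 2.59 in INT-787 (log2 differences −2.70, adjusted p = 2.16e-07, and −4.35, adjusted p = 3.03e-11). *Mup20*, a major urinary protein, fell with INT-787 by 1.56 (adjusted p = 5.11e-05), and the complement gene *C6* fell by 1.41 (adjusted p = 3.38e-05). With OCA *Cyp7b1* fell by 0.53 (adjusted p = 0.00788) and *Cyp2f2* rose by 0.74 (adjusted p = 0.0264). INT-787 was below OCA for *Serpina1e* (−1.64, adjusted p = 0.00296), *Mup20* (−1.03, adjusted p = 0.0170) and *C6* (−0.88, adjusted p = 0.0207). The direction of *Cyp4a12a* (lower with OCA) was thus that of 3 of the 4 called male-biased genes, whereas *Cyp4a12b* rose with INT-787 while 6 of 7 called fell. OCA replicate 3, the highest OCA mouse for both copies, was the highest OCA mouse for 10 of the 11 male-biased genes (90.9%) and for 11.9% of all tested genes. It also led its group for 7 of 11 pericentral genes (63.6%), 5 of 11 growth hormone signalling genes (45.5%) and 4 of 8 other *Cyp4* genes. INT-787 replicate 1, the highest INT-787 mouse for both copies, was the highest for 3 of the 11 male-biased genes (27.3%, beside 11.4% of all tested genes). INT-787 replicates 4 and 8 were also the highest for 3 each.

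Of 19 female-biased genes 11 were tested, with 3 higher and 1 lower for INT-787 (median 0.04), 1 and 1 for OCA (median −0.0031), and 1 and 1 between the drugs (median 0.37). *Cyp2a4* fell with INT-787 (−2.53, adjusted p = 4.55e-05) and was below OCA at −1.5 (adjusted p = 0.0301). *Cyp2b13* rose with INT-787 (1.99, adjusted p = 0.0122), and *Slc22a27* fell with OCA (−0.83, adjusted p = 0.00515). Of 11 tested genes of growth hormone signalling, 2 rose and 2 fell with INT-787 (median −0.08), among them *Stat5b* (0.45, adjusted p = 0.000951), *Bcl6* (1.11, adjusted p = 0.0460) and *Socs2* (−1.01, adjusted p = 0.0145). None was called for OCA (median −0.08) or between the drugs (median −0.01).

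Omega-hydroxylases are known to be enriched near the central vein, so zonation markers were read beside them. Of 11 pericentral genes none was called with INT-787 (median 0.13), 1 fell with OCA (median −0.21) and 1 was higher with INT-787 than OCA (median 0.17), both being *Cyp27a1* (−0.28, adjusted p = 0.0420, and 0.42, adjusted p = 0.00322). Of 11 periportal genes 9 rose with INT-787 (median 0.94), 6 rose with OCA (median 0.62), 2 were higher with INT-787 than OCA (median 0.26) and none fell. *Hal*, which breaks down histidine, rose by 2.27 and 2.00 (adjusted p = 4.08e-16 and 1.48e-14), the glutaminase *Gls2* by 1.29 and 0.97 (adjusted p = 1.10e-07 and 3.98e-05) and *Ass1* of the urea cycle by 1.42 and 1.02 (adjusted p = 5.30e-11 and 2.05e-07) with INT-787 and OCA. *Ass1* was also higher with INT-787 than OCA by 0.41 (adjusted p = 0.0332), as was *Hsd17b13* by 0.40 (adjusted p = 0.0196).

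Markers of other liver cells were listed as well, beside the 9.48% of all tested genes that fell with INT-787. Of 8 stellate markers 5 fell with that drug (median −0.56). Their summed levels were 1162 to 2114 CPM in vehicle, 1088 to 2661 in OCA and 447 to 1073 in INT-787. Among 6 cholangiocyte markers 2 fell (median −0.43), and among 7 of sinusoidal endothelium 3 fell (median −0.33). Among 8 of Kupffer cells and macrophages 2 fell (median −0.36), and among 4 tested of lymphocytes 1 fell (median −0.49). Counts of 1 to 3 in lists this short are too small to be read against the 9.48%. With OCA no marker of these 5 lists was called (medians 0.11, 0.16, −0.28, −0.13 and −0.55). Between the drugs 3 stellate, 1 cholangiocyte, 1 Kupffer cell and 1 hepatocyte marker were lower with INT-787 and none higher (medians −0.49, −0.41, −0.31 and 0.02), with none called of endothelium or lymphocytes (−0.03 and 0.06). Of the 8 hepatocyte markers 3 rose with each drug (medians 0.24 with INT-787 and 0.34 with OCA). The part of these levels in the Cyp4a differences was not tested.

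Genes most like the members were ranked by Pearson's r of log2 CPM over the 28 mice after each group mean was subtracted, among 9349 genes, as a description without a test. For *Cyp4a14* they were *Retsat* (0.90), a retinol saturase, *Ehhadh* (0.83), the peroxisomal bifunctional enzyme of beta-oxidation, *Ces1e* (0.82), *Ces1d* (0.80) and *Cyp2c29* (0.78). For *Cyp4a10* summed with *Cyp4a31* and *Cyp4a32* they were *Retsat* (0.92), *Ehhadh* (0.83), *Ces1d* (0.79), *Ces1e* (0.77) and *Grhpr* (0.77), so 4 genes stood in both lists. For *Cyp4a12a* summed with *Cyp4a12b* none of those appeared, and the 5 were *Ces3b* (0.89), *C6* (0.88), *Ces3a* (0.86), *Cyp4f14* (0.85) and *Serpina3k* (0.85). All mice share their library depth scaling in these values.

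Of the 5 genes most like *Cyp4a14*, 3 fell with OCA. With OCA *Retsat* fell by 0.77 (adjusted p = 0.0207), *Ces1d* by 1.21 (adjusted p = 3.16e-06) and *Ces1e* by 1.08 (adjusted p = 1.88e-05), while *Ehhadh* was at −0.68 (adjusted p = 0.146) and *Cyp2c29* at −0.17 (adjusted p = 0.785). With INT-787 *Ces1d* fell by 0.66 (adjusted p = 0.00270) and *Ces1e* by 0.54 (adjusted p = 0.0132), and *Retsat* (−0.20, adjusted p = 0.551), *Ehhadh* (−0.01, adjusted p = 0.991), *Cyp2c29* (0.15, adjusted p = 0.712) and *Grhpr* (0.06, adjusted p = 0.678) were not called. Of the genes most like the *Cyp4a12* sum, *Ces3a* (−1.25, adjusted p = 0.000705) and *Serpina3k* (−1.05, adjusted p = 0.000620) fell with INT-787, whereas *Ces3b* rose (0.93, adjusted p = 0.00603). These neighbours were all carboxylesterases, serpins, complement or P450 genes of the hepatocyte, and 4 of the 5 fell with INT-787 (9.48% of all tested genes did), while the *Cyp4a12* sum was at 0.01. With OCA none of the 5 was called, at −0.41 for *Ces3a*, 0.57 for *Ces3b*, 0.15 for *Serpina3k*, −0.53 for *C6* and −0.39 for *Cyp4f14* (lowest adjusted p 0.181).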

How the data were processed

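The authors made stranded poly(A) libraries (TruSeq, 75-cycle kit), aligned reads to GRCm38 (Ensembl annotation) with STAR and deposited whole-number counts of reads per Ensembl gene without normalization. The counting program, its use of strand and its treatment of reads that fit several genes are not given in the sources used here. Symbols came from GENCODE vM21 for 21858 of 21935 genes. Counts were filtered with filterByExpr and tested with edgeR 4.0.16 (TMM, quasi-likelihood, 1 mean per group over all 28 mice) in R 4.3.3, with Benjamini-Hochberg adjustment over 12580 genes and 95% intervals from each SE. Summed copies were tested in 2 further fits of the whole table. CPM were scaled by TMM library sizes. DESeq2 1.42.0, limma-voom (limma 3.58.1), other scalings, filters and thresholds, the replicate block, sets of neighbouring sample numbers and leaving out mice were alternatives. Only the edgeR, DESeq2 and limma-voom fits with the main filter and no block were tested on simulated data. Ratios of copies used counts plus 0.5 and exact permutation tests (scipy 1.17.1), with intervals from inverting the test. Coding sequences were aligned with Biopython 1.88. Members, lists and ratios were chosen with earlier results of these data known. Genes named were all members and sums, Ppara, up to 3 called genes per list and comparison with the largest change among those of at least 5 CPM, and the 5 genes most like each main feature. A gene of the female-biased list that this rule names is not reported here. Replicates were separate mice by the labels, and no library was counted more than once.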

Additional observations from a re-analysis of the deposited data

Results flagged for a closer look

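In 12 of 27 groups of values the highest mouse stood apart from the others by more than Dixon's 95% critical value. The values were those of 6 members and 3 sums in each group of mice. That critical value is passed in about 1 of 20 groups where values are normally distributed. CPM were used without logs and were skewed, so these 12 groups cannot be read against that rate. The features share mice and counts, so these are not separate events. INT-787 replicate 4 stood apart for *Cyp4a10* at 1419 CPM (next mouse 422), *Cyp4a14* at 2033 (next 614), *Cyp4a31* at 74.5 (next 7.03) and *Cyp4a32* at 18.1 (next 8.75), and therefore for the sum of *Cyp4a10* with *Cyp4a31* and *Cyp4a32* at 1512 CPM and for all 6 genes at 3723. It did not stand apart for *Cyp4a12a* or *Cyp4a12b*.

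OCA replicate 4 stood apart for *Cyp4a10* at 542 CPM (next 287), for *Cyp4a31* at 30.0 (next 9.18) and for their sum with *Cyp4a32* at 580.4. OCA replicate 3 did so for *Cyp4a12a* at 69.9 CPM (next 28.2), *Cyp4a12b* at 51.2 (next 19.2) and their sum at 121. No vehicle mouse stood apart for any of the 9 features. These mice were kept in the results as reported.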

How the results depend on the processing

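The call of *Cyp4a12b* for INT-787 against vehicle held in all 38 alternatives that could test it (log2 1.71 to 2.25, adjusted p 0.00449 to 0.0379). It could not be tested with at least 10 counts in every mouse, which left 5 members. The number of members called, 1 in each comparison as reported, moved as follows, and unless named the cause was not tested. For INT-787 against vehicle it was 0 with at least 10 counts in every mouse and 0 of 3 with copies summed, and 2 with DESeq2, limma-voom or sample number sets, with a range of 1 to 2 over fits without 1 mouse. For OCA against vehicle it was 0 at an adjusted p of at most 0.01, with robust edgeR, without vehicle mice 5 and 6 or with copies summed. It was 2 with upper-quartile normalization, at least 10 counts in every mouse or only the 2 groups compared, 3 with limma-voom or sample number sets, 4 with DESeq2, and 0 to 3 without 1 mouse. For INT-787 against OCA it was 0 at an adjusted p of at most 0.01, with at least 10 counts in every mouse, with robust edgeR, with only the 2 groups compared or with copies summed, and 0 to 3 without 1 mouse. The call of *Cyp4a12a* with OCA was also lost with robust edgeR (adjusted p = 0.0711) and without vehicle mice 5 and 6 (0.0707), and that of *Cyp4a12b* between drugs with robust edgeR (0.0613), only the 2 groups compared (0.0529) and sample number sets (0.0679).

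Replicate numbers did not meet the rule set for pairing, that every pair must exceed 0.1. A real block could fail so strict a rule, so it does not show that the mice were unpaired. Correlations of same-numbered mice ranged from −0.238 to 0.472 (vehicle and OCA), −0.249 to 0.254 (vehicle and INT-787) and −0.204 to 0.403 (OCA and INT-787), with 3, 4 and 6 of 9 pairs over 0.1, and 1, 0 and 4 correlated best with their own number. For sets of neighbouring sample numbers 4 of 8, 5 of 9 and 6 of 8 pairs were over 0.1 (lowest −0.206, −0.159 and −0.168), and 1, 1 and 5 correlated best within their set. With the replicate block 2, 3 and 3 members were called (INT-787, OCA, between drugs). The block called *Cyp4a14* with INT-787 (−0.93, adjusted p = 0.0225) and with OCA (−1.87, adjusted p = 0.000147), and *Cyp4a10* with OCA (−0.95) and between drugs (1.09), and gave *Cyp4a12a* −2.30 with OCA, no longer called (adjusted p = 0.0712). It also called *Cyp4a32* with OCA (−0.67), *Cyp4a14* between drugs (0.94) and the *Cyp4a10* sum with OCA (−0.93) and between drugs (1.04), and all 6 genes summed with OCA (−1.5, adjusted p = 0.000891) and between drugs (1.07, adjusted p = 0.0179). Sample number sets called *Cyp4a14* (−1.66) with OCA, *Cyp4a31* with INT-787 (−1.10) and OCA (−1.22), and *Cyp4a10* (1.03) and its sum (0.99) between drugs.

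Among the log2 differences, none of which was called as reported, these changed sign. The *Cyp4a12* sum with INT-787 was −0.0532 with upper-quartile normalization, −0.0174 with at least 10 counts in every mouse, −0.375 with limma-voom, −0.0509 with the replicate block and −0.337 with sample number sets, and −0.277 to 0.193 without 1 mouse. All 6 genes with INT-787 gave 0.00274 with no filter, 0.0222 without vehicle mice 5 and 6, and −0.574 to 0.109 without 1 mouse. *Cyp4a12b* with OCA gave −0.0285 with upper-quartile normalization, −0.298 with limma-voom, −0.235 with sample number sets, and −0.506 to 0.252 without 1 mouse. *Cyp4a31* between drugs gave −0.108 with DESeq2 and −0.00173 with limma-voom, and −0.739 to 1.28 without 1 mouse. Without 1 mouse, INT-787 against vehicle ranged from −0.0085 to 0.688 for *Cyp4a10*, −1.5 to 0.0713 for *Cyp4a31*, −0.279 to 0.0222 for *Cyp4a32* and −0.0591 to 0.649 for the *Cyp4a10* sum, and the *Cyp4a31* to *Cyp4a10* ratio with OCA from −0.587 to 0.00316.

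Depth limited few values, since every member had at least 20 counts in every mouse except vehicle replicate 6, with 4 counts of *Cyp4a12b*, 11 of *Cyp4a32* and 15 of *Cyp4a31*. Intervals do not cover reads shared by copies.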
